A study of Homo sapiens with 6 samples.

Results

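Genes of the S100 family (S100A2, S100A4, S100A6, S100A10, S100A11, S100A13 and S100A16) and the annexin genes ANXA1, ANXA2 and ANXA3 were followed in Panc-1 cells treated with TGFβ. The 10 genes were chosen by name, and every probe set that the platform annotation ties to only 1 of them was taken. This gave 17 probe sets, out of 41091 probe sets that name a single gene and 19777 genes on the array. The treated group held 3 arrays from cells of the human pancreatic adenocarcinoma line Panc-1 that were starved of serum for 24 h and then given 5 ng/mL of porcine TGFβ1 for 48 h. The untreated group held 3 arrays of the same line, which per the study's methods had the same starvation and fresh medium without TGFβ. The dose is that of the labels, and the study's methods give the same figure in nM, which is another amount. The treatment served as a model of epithelial-mesenchymal transition (EMT), the switch by which carcinoma cells give up cell-cell contacts and take on a spindle shape, and 1 cell line stands for it here.

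S100 proteins are small calcium-binding proteins with a pair of EF-hand loops. They work mostly as dimers that, once loaded with calcium, bind and alter other proteins, among them annexins, cytoskeletal motors and p53. Annexins are a separate family that attaches to acidic phospholipids of membranes when calcium rises, and both families are studied for their part in motility, membrane repair and secretion in carcinomas, the pancreas included. S100A10 is an exception to the calcium rule, since it is held permanently in an open form and sits on the plasma membrane as a complex with annexin A2.

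To show where the members start, the bases just upstream of the start of transcription are printed for 4 of them. S100A2 and S100A11 had the biggest rises among the members, S100A13 was the member that fell, and ANXA2 is an annexin that did not pass the test. The sequences are those of RefSeq on GRCh38.p14, 150 bases that end at the base before the annotated start, on the minus strand in all 4 cases. They lie at chr1:153565845-153565994 (S100A2), chr1:152037005-152037154 (S100A11), chr1:153634362-153634511 (S100A13) and chr15:60397987-60398136 (ANXA2). Capitals mark matches to the AP-1 site TGANTCA, bound by FOS and JUN proteins, and to the TATA box TATAAA.
S100A2: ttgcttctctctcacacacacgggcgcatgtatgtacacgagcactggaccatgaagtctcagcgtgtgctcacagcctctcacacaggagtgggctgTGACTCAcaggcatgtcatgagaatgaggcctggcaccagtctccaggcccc
S100A11: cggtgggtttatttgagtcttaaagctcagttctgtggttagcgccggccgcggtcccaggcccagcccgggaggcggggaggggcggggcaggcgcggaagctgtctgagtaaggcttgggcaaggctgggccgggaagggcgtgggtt
S100A13: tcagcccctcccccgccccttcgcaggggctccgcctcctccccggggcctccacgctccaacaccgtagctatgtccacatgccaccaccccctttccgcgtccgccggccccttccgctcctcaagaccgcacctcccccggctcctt
ANXA2: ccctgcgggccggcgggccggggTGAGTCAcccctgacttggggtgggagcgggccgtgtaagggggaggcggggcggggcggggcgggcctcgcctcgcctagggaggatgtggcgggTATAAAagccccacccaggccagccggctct
The run upstream of S100A2 held an AP-1 match beginning at -52 and 4 CpG dinucleotides. That of ANXA2 held an AP-1 match at -127, a TATA box at -31 and 14 CpGs. The runs of S100A11 and S100A13, with 12 and 13 CpGs, held neither motif.

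Across the wider window of RefSeq, 250 bases before to 50 bases after each start, all 10 members were found and motifs were searched on both strands. The AP-1 letters were present in 2 members (S100A2 and ANXA2) and in 7.71% of the 35116 windows of all genes. The TATA box was present in 3 members (S100A4, ANXA1 and ANXA2, each at -31) and in 11.5% of all windows. The short SMAD motif CAGAC was present in 5 members (S100A4, S100A10, S100A11, S100A13 and S100A16) and in 45.3% of all windows. The full SMAD box GTCTAGAC was in no member and in 0.202% of all windows. CACCTG, the E-box of the ZEB and SNAI repressors, was present in 3 members (S100A4, S100A16 and ANXA3) and in 20.6% of all windows. GGAATG, the TEAD motif, was present in 1 member (S100A16) and in 14% of all windows. These matches are letters in a window and not measured sites. The members' windows ranged in CpG count from 0 (ANXA1) to 32 (S100A10 and ANXA2), with 5 in S100A2 and 3 in S100A16, against a median of 14 over all windows.

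The values are log2 signals, 1 per probe set and array. A probe set was tested if its mean reached a signal of 100, or 6.64 on the log2 scale, in either group, and a gene's value is the mean of its tested probe sets. Array medians were 5.14 to 5.21, and correlations between arrays were at least 0.9947 within a group and 0.954 to 0.959 between groups. Of 5 epithelial markers above the limit, 4 fell (KRT8, KRT18, EPCAM and CDH1), where 31.0% of all genes tested were lower. KRT7 was at 0.24 and did not pass the test (adjusted p = 0.0569 by limma), while KRT19 was below the limit. CDH1 averaged 5.56 with TGFβ and 7.58 untreated. It reached the limit on the untreated arrays only, so its entry already required a lower value with TGFβ, and it supports nothing in the count of 4. The mesenchymal markers VIM and CDH2 rose, by 0.36 and 0.41 on the log2 scale, and FN1 was below the limit. With probe sets below the limit kept, VIM was at 0.79. Markers of acinar, islet, leukocyte, endothelial, erythroid and fibroblast cells were all below it. On the ACTB control probe sets, the 3′ signal minus the 5′ signal was 0.27 to 0.39 (log2) on TGFβ arrays and 0.52 to 0.57 on untreated arrays. For GAPDH it was -0.043 to -0.0020 on TGFβ arrays and -0.019 to -9.11e-05 on untreated arrays, and the part of either in the results was not tested. The experiment was repeated 3 times, but the labels do not say how far the repeats were separate cultures, so p-values measure the spread between these arrays. In bulk samples, fewer cells expressing a gene and less RNA of it per cell cannot be told apart.

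Of the 10 genes, 9 had at least 1 probe set above the signal limit, and 6 of these 9 changed with TGFβ by limma at an adjusted p under 0.05. Of these 6, 5 rose (S100A2, S100A4, S100A10, S100A11 and S100A16), 1 fell (S100A13), and S100A6, ANXA1 and ANXA2 did not pass. Changes were common in these cells, since 58.7% of the 10115 genes tested changed, 27.7% being higher and 31.0% lower, so 6 of 9 is close to that background. S100A2, S100A11 and S100A13, 3 of the 9 tested, changed by 1.5-fold or more, as did 13.4% of all genes. The median log2 fold change was 0.27 over the 9 members, against -0.013 over all genes. Of the 17 probe sets, 12 were above the limit, of which 6 were higher, 1 was lower and 5 did not pass, where 26.6% of the 19101 probe sets tested were higher and 28.5% lower (55.1% changed).

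**Figure D1:**
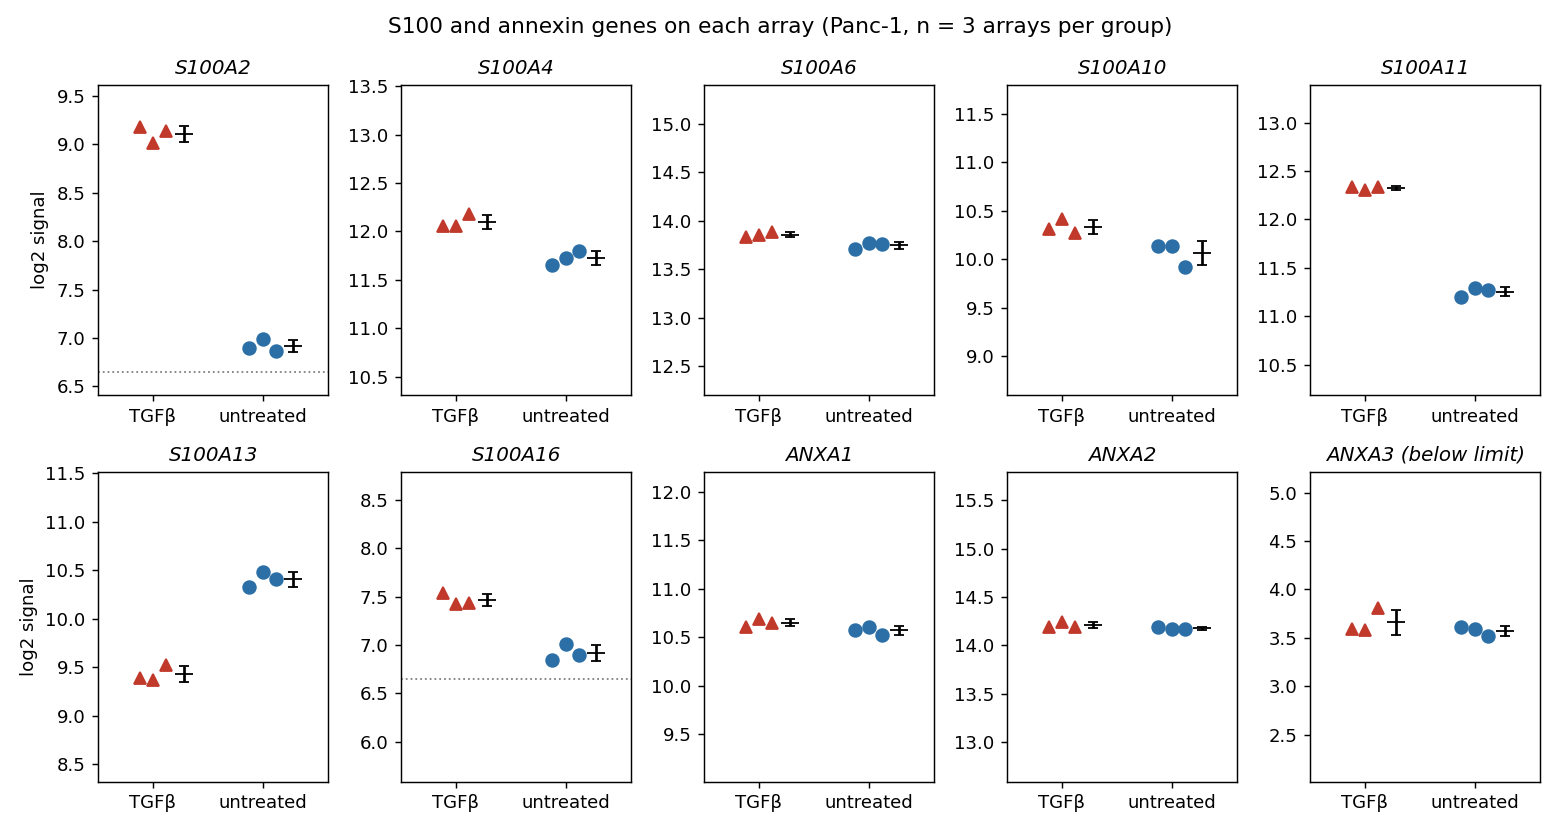
Log2 signal of each gene (vertical axes, each spanning the same range of log2 units) on the 3 TGFβ arrays (triangles) and the 3 untreated arrays (circles), with the mean and SD of each group beside the points and a dotted line at the limit of 6.64. The groups of S100A2, S100A11 and S100A13 lie far apart, and those of ANXA1 overlap.

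S100A2 (Entrez 6273) had the highest rise of the members. Its product is a mostly nuclear S100 protein of epithelial cells that binds p53. Its single probe set (204268_at) read 9.18, 9.02 and 9.14 on the TGFβ arrays and 6.90, 6.99 and 6.86 on the untreated arrays. All 3 treated arrays were above all 3 untreated ones by about the same amount, and the untreated values lay just above the limit of 6.64. The group means were 9.11 ± 0.083 with TGFβ and 6.92 ± 0.065 untreated (SD, n = 3 arrays each), a log2 fold change of 2.19 (SE 0.067, 95% interval 2.03 to 2.36), or 4.57-fold higher, with an adjusted p of 7.73e-06 by limma. Among all 10115 genes it ranked 26 from the highest. The 3 same-numbered pairs differed by 2.28, 2.03 and 2.27.

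S100A11 (Entrez 6282), which encodes calgizzarin, a partner of annexin A1 with roles in growth control and membrane repair, also rose clearly. Probe set 200660_at read 12.34, 12.30 and 12.33 on the TGFβ arrays and 11.20, 11.29 and 11.27 on the untreated arrays. Both groups were tight, with an SD of 0.021 with TGFβ and of 0.045 untreated, and they did not overlap. The log2 fold change was 1.07 (SE 0.052, 95% interval 0.95 to 1.20; adjusted p = 2.95e-05 by limma), 2.10-fold higher, which ranked 209 from the highest of all genes.

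S100A16 and S100A4 rose by smaller amounts. S100A16 (Entrez 140576), a widely expressed member of the family, read 7.54, 7.42 and 7.43 on the TGFβ arrays and 6.84, 7.01 and 6.89 on the untreated arrays (227998_at), so the groups did not overlap. Its log2 fold change was 0.55 (SE 0.066, 95% interval 0.39 to 0.71; adjusted p = 0.000853 by limma), 1.46-fold higher. The methods' t-test on linear values, adjusted over all genes, did not keep this call (adjusted p = 0.0662).

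S100A4 (Entrez 6275) encodes metastasin, also called fibroblast-specific protein, which binds non-muscle myosin IIA and is widely used as a mesenchymal marker. Probe set 203186_s_at read 12.06, 12.05 and 12.18 on the TGFβ arrays and 11.66, 11.73 and 11.79 on the untreated arrays. The lowest treated array was above the highest untreated array, and the untreated level was already far above the limit. The log2 fold change was 0.37 (SE 0.049, 95% interval 0.25 to 0.49; adjusted p = 0.00123 by limma), 1.29-fold higher. The rise of VIM given above was 0.36, but VIM averaged 14.29 with TGFβ and 13.92 untreated, near the top of the scale. With dim probe sets kept, VIM was at 0.79. The difference between S100A4 and VIM was not tested.

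S100A10 (Entrez 6281) encodes p11, the partner of annexin A2, and was measured by a bright and a dim probe set. The bright one, 200872_at, read 13.77, 13.61 and 13.67 on the TGFβ arrays and 13.41, 13.49 and 13.49 on the untreated arrays, with no overlap and a log2 fold change of 0.22 (SE 0.067; adjusted p = 0.0322 by limma over all probe sets). The dim one, 238909_at, read 6.86, 7.22 and 6.87 on the TGFβ arrays and 6.87, 6.78 and 6.35 on the untreated arrays. These groups overlapped, and its first pair differed by only -0.0099. Its log2 fold change was 0.32 (SE 0.11; adjusted p = 0.0476 by limma). The mean of both read 10.31, 10.42 and 10.27 with TGFβ and 10.14, 10.13 and 9.92 untreated, a log2 fold change of 0.27 (SE 0.055, 95% interval 0.14 to 0.41; adjusted p = 0.00699 by limma), 1.21-fold higher.

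The calls of both S100A10 probe sets were near the threshold. That of 200872_at was lost when replicate 1, 2 or 3 was left out (adjusted p = 0.0596, 0.0638 and 0.0828 by limma). That of 238909_at was lost without replicate 2 or 3 (adjusted p = 0.184 and 0.192 by limma) and without the replicate block (0.104). Without replicate 1 its log2 fold change was 0.48. With the methods' t-test, adjusted over all genes, the gene's value did not pass either (adjusted p = 0.0747).

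S100A6 (Entrez 6277), or calcyclin, a growth-associated S100 protein that binds CACYBP, was among the members that did not pass. Its bright probe set 217728_at read 13.83, 13.85 and 13.89 on the TGFβ arrays and 13.71, 13.77 and 13.76 on the untreated arrays. The groups did not overlap, but the gap was small, with a log2 fold change of 0.11 (SE 0.048, 95% interval -0.0080 to 0.23; adjusted p = 0.0955 by limma). The other probe set, 228923_at, was below the limit and read 5.44, 5.27 and 5.09 on the TGFβ arrays and 4.99, 4.52 and 4.87 on the untreated arrays. With no limit on signal the mean of both gave 0.29 (adjusted p = 0.0164 by limma), and the call on S100A6 therefore depended on whether the dim probe set was counted.

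S100A13 (Entrez 6284), which takes part in the release from cells of FGF1 and IL-1α, which lack a signal peptide, was the only member that fell. Probe set 202598_at read 9.39, 9.37 and 9.53 on the TGFβ arrays and 10.33, 10.49 and 10.41 on the untreated arrays. Each treated array lay well under each untreated one. The means were 9.43 ± 0.084 with TGFβ and 10.41 ± 0.079 untreated (SD, n = 3 arrays each), a log2 fold change of -0.98 (SE 0.062, 95% interval -1.13 to -0.83; adjusted p = 7.53e-05 by limma), 1.97-fold lower.

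The second S100A13 probe set did not show this. It was below the limit (213481_at) and read 5.85, 5.98 and 6.10 on the TGFβ arrays and 5.97, 5.96 and 5.76 on the untreated arrays, with overlapping groups. When all probe sets were counted, the gene's mean had a log2 fold change of -0.45 (adjusted p = 0.00395 by limma).

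**Figure D2:**
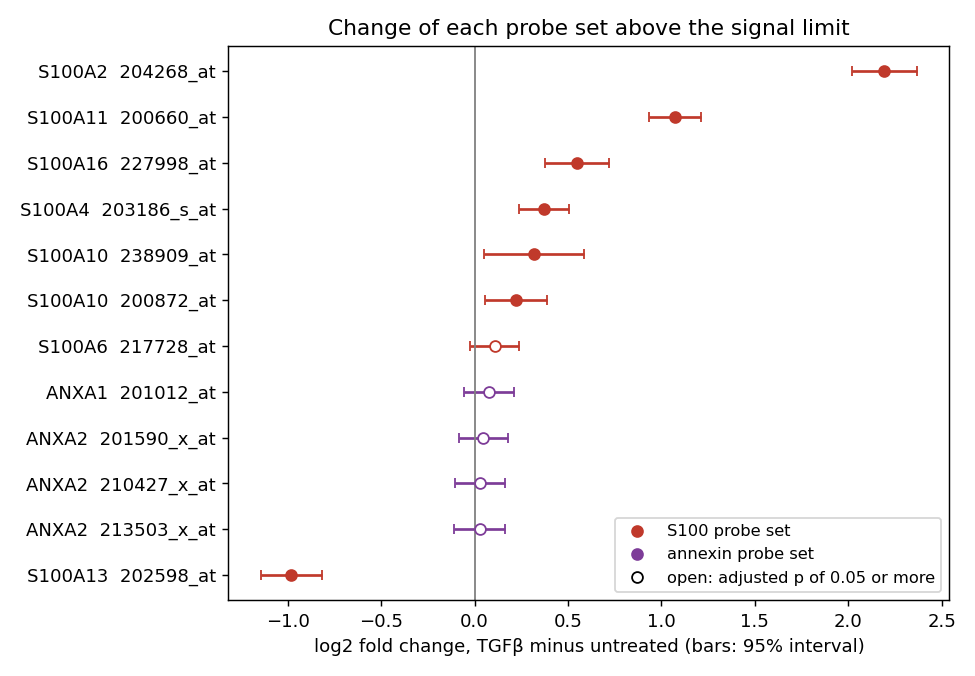
Log2 fold change, TGFβ minus untreated (horizontal axis), of the 12 probe sets above the signal limit, with 95% intervals from the limma fit over all probe sets and open points where the adjusted p was 0.05 or more. The change ran from -0.98 for S100A13 to 2.19 for S100A2, and the intervals of S100A6, ANXA1 and ANXA2 include 0.

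No annexin among the members passed the test. ANXA1 (Entrez 301) encodes annexin A1, or lipocortin, an EGF receptor substrate that also signals outside the cell through formyl peptide receptors. Probe set 201012_at read 10.61, 10.68 and 10.65 on the TGFβ arrays and 10.57, 10.61 and 10.53 on the untreated arrays. The groups overlapped at their edge, and the log2 fold change was 0.078 (SE 0.049, 95% interval -0.042 to 0.20; adjusted p = 0.219 by limma). A second probe set, 233011_at, was below the limit, at 3.69, 3.81 and 3.66 with TGFβ and 3.68, 3.65 and 3.44 untreated.

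ANXA2 (Entrez 302) encodes annexin A2, which with S100A10 forms a tetramer on the plasma membrane that binds plasminogen. Of its 4 probe sets 3 were above the limit, and all 3 lay close to the top of the scale, where the brightest probe set of an array read 14.70 to 14.76. Probe set 201590_x_at read 14.22, 14.25 and 14.21 on the TGFβ arrays and 14.19, 14.17 and 14.17 on the untreated arrays, a small gap with no overlap. The other two, 210427_x_at and 213503_x_at, had log2 fold changes of 0.029 and 0.027, and their groups overlapped. The gene's log2 fold change was 0.034 (SE 0.049, 95% interval -0.085 to 0.15; adjusted p = 0.575 by limma). How far signals this near the ceiling can still rise was not tested.

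The names of all 3 bright ANXA2 probe sets end in _x_at, which marks probes that can also hybridise with similar sequences. ANXA2 has processed pseudogenes, and the probe set of ANXA2P2 (208816_x_at) read 12.59, 12.70 and 12.65 on the TGFβ arrays and 12.61, 12.59 and 12.65 on the untreated arrays, with overlapping groups. Signals of the gene and the pseudogene cannot be told apart by such probes. The fourth ANXA2 probe set, 1568126_at, was below the limit, at 5.30, 5.47 and 5.46 with TGFβ and 4.93, 5.50 and 5.05 untreated.

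ANXA3 (Entrez 306), an annexin studied in drug resistance and cell growth, was not measurable above the limit. Its probe set 209369_at read 3.59, 3.59 and 3.81 on the TGFβ arrays and 3.61, 3.59 and 3.52 on the untreated arrays, under the median of every array. No change could be read at this signal.

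The S100 genes of the members all belong to the cluster of the family on chromosome 1, where S100A10 and S100A11 are neighbours and S100A4, S100A3, S100A2 and S100A16 follow each other. The changes did not go along with the order of the genes in any single direction. S100A10 (0.27) stood beside S100A11 (1.07), and S100A6, S100A4, S100A3, S100A2 and S100A16 read 0.11, 0.37, 1.35, 2.19 and 0.55 in their order along the chromosome. S100A13, which fell by 0.98, lies beyond S100A14, a gene below the limit. S100A3 is not one of the members. It was the only one of 13 other S100 genes above the limit and averaged 8.02 ± 0.031 on the TGFβ arrays and 6.67 ± 0.036 on the untreated arrays with no overlap (SD, n = 3 arrays each; log2 fold change 1.35, SE 0.048, adjusted p = 1.14e-05 by limma), so that S100A2 and its neighbour S100A3 both rose by over 1.5-fold. The S100A3 window also held an AP-1 match, at -225.

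**Figure D3:**
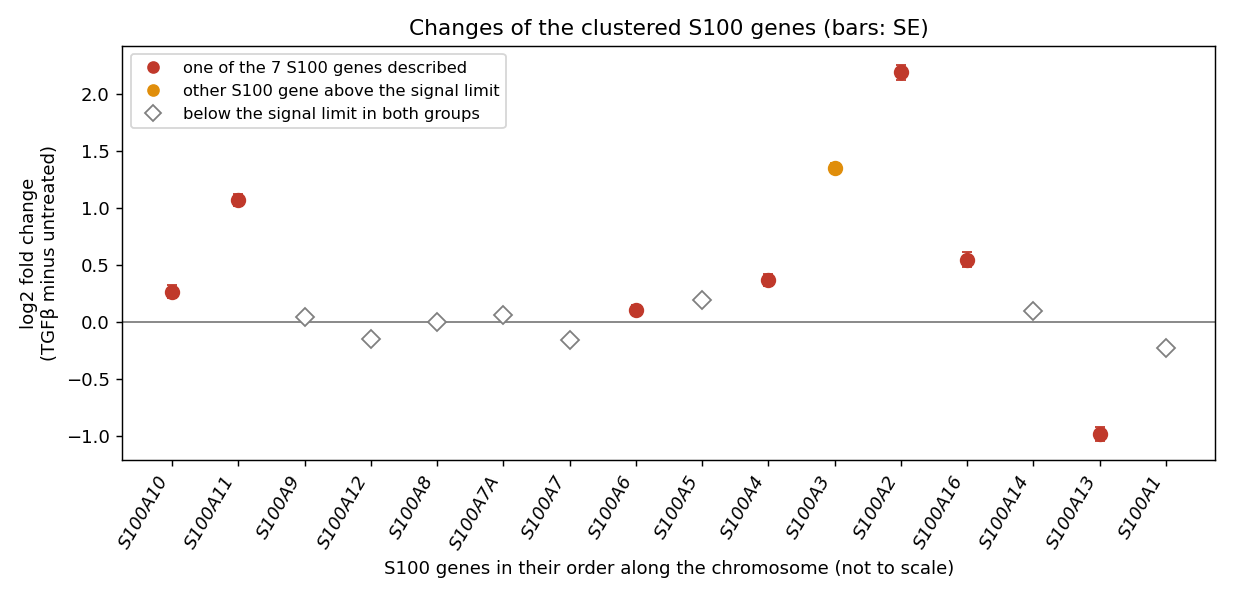
Log2 fold change, TGFβ minus untreated (vertical axis; bars are SE), of the S100 genes of the chromosome 1 cluster in their order in the RefSeq annotation (horizontal axis, distances not to scale). S100A3 (1.35) and S100A2 (2.19) stand side by side at the top, and open diamonds show genes below the signal limit, whose values come from a fit without that limit.

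The remaining S100 genes (S100A1, S100A5, S100A7, S100A7A, S100A8, S100A9, S100A12, S100A14, S100B, S100G, S100P and S100Z) were below the limit in both groups. Among the other annexins 5 were above it, of which 1 rose and 2 fell, against 27.7% higher and 31.0% lower over all genes. ANXA5, whose product binds phosphatidylserine on dying cells, read 12.49, 12.44 and 12.51 on the TGFβ arrays and 11.81, 11.84 and 11.93 on the untreated arrays (log2 fold change 0.62, SE 0.051, adjusted p = 0.000195 by limma). ANXA11 fell by 0.48 (SE 0.049, adjusted p = 0.000472). The dimmest of its 3 probe sets averaged 6.55 with TGFβ and 7.40 untreated, a log2 fold change of -0.85. It reached the limit on the mean of the untreated arrays only, so its entry already required a lower value with TGFβ. The fall of 0.48 includes this probe set. The other probe sets of ANXA11 were above the limit in both groups, with log2 fold changes of -0.29 (the brightest) and -0.30. ANXA4 fell by 0.17 (SE 0.054, adjusted p = 0.0315), a call that was lost without replicate 2 (0.129) and without replicate 3 (0.213). ANXA6 and ANXA7 did not pass, and ANXA9, ANXA10 and ANXA13 were below the limit. In limma's interval ANXA5 (0.50 to 0.74) lay apart from ANXA1 (-0.042 to 0.20) and ANXA2 (-0.085 to 0.15), but the differences between genes were not tested.

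Genes whose products bind the members were next. Of 17 such partners and receptors above the limit, 2 rose, 9 fell and 6 did not pass, with a median log2 fold change of -0.14. Over all genes tested 27.7% were higher and 31.0% lower, and the difference from these shares was not tested. AHNAK, a giant scaffold protein that binds the annexin A2 and S100A10 complex, read 7.89, 7.80 and 7.96 on the TGFβ arrays and 8.50, 8.58 and 8.86 on the untreated arrays and fell by 0.76 (SE 0.066, adjusted p = 0.000252 by limma). With the probe sets below the limit kept, the log2 fold change of AHNAK was -0.34. The brightest probe set of AHNAK alone gave -0.92, and whether its dimmer ones reached the limit in both groups was not checked. Of the S100A4 targets, MYH10, the heavy chain of non-muscle myosin IIB, fell by 0.58 (by 0.32 with dim probe sets kept), while that of myosin IIA, MYH9, was at 0.12 and did not pass (95% interval -0.062 to 0.30). MDM2, the ubiquitin ligase of p53, fell by 0.38, by 0.23 with dim probe sets kept and by 0.61 without _x_at probe sets. ANXA2R, the annexin A2 receptor, fell by 0.36, by 0.23 without replicate 1, and did not pass the methods' t-test (0.100 unadjusted).

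For S100A13, SYT1 showed the opposite direction to the S100 gene itself. SYT1, synaptotagmin, which joins S100A13 in the FGF1 release complex, read 8.40, 8.21 and 8.19 on the TGFβ arrays and 6.88, 6.65 and 6.75 on the untreated arrays (log2 fold change 1.51, SE 0.051, adjusted p = 9.52e-06 by limma). The dimmer of its 2 probe sets reached the limit on the mean of the TGFβ arrays only, so its entry already required a higher value there. The brightest probe set alone gave 1.30, as did a limit on the mean over all arrays. The cargo genes FGF1 and IL1A were below the limit. PPP5C, a phosphatase activated by several S100 proteins, rose by 0.18, a call lost without replicate 2 (adjusted p = 0.0706 by limma) and without replicate 3 (0.173). The S100A6 partner CACYBP did not pass (0.013, 95% interval -0.14 to 0.17, and -0.029 with dim probe sets kept). The receptors AGER and TLR4 of secreted S100 proteins, and FPR1, FPR2 and FPR3 of annexin A1, were below the limit, as were TRPV5, TRPV6 and PLA2G4A.

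Annexin A2 and S100A10 take part in plasminogen activation and in sealing torn membranes. Of 14 genes of these processes above the limit 8 rose, 2 fell and 4 did not pass, with a median of 0.24. The shares over all genes tested were 27.7% higher and 31.0% lower, and the difference from them was not tested. PLAUR, the urokinase receptor, read 7.05, 7.22 and 7.15 on the TGFβ arrays and 5.92, 5.92 and 5.77 on the untreated arrays, with no overlap. PLAUR and DYSF reached the limit on the mean of the TGFβ arrays only, so their entry already required a higher value there. They support nothing in the count of 8, and the median of 0.24 includes them and is raised by their entry. SERPINE2, a secreted inhibitor of urokinase and thrombin, rose by 1.12, PLAU, urokinase itself, by 0.89 and CAPN2, the catalytic subunit of a calpain, by 0.64. With dim probe sets kept, SERPINE2 was at 0.69 and CAPN2 at 0.36. Both plasminogen-binding proteins of the list fell, PLGRKT by 0.24 and ENO1 by 0.21, and neither call held without replicate 2 (adjusted p = 0.0587 and 0.0855 by limma). The call of PLGRKT was also lost without replicate 3 (adjusted p = 0.0506 by limma). That of ENO1 was also lost with dim probe sets kept (adjusted p = 0.0557 by limma). PLG, PLAT and TRIM72 were below the limit.

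Other calcium sensors with EF-hands went in both directions. Of 10 above the limit, 3 rose, 4 fell and 3 did not pass, with a median of -0.0072. These counts are close to the background of 27.7% higher and 31.0% lower among all genes tested. RCN1, CALU and EFHD2 rose by 0.35, 0.34 and 0.34, and the brightest probe set alone gave 0.19 for CALU and 0.18 for EFHD2. EFHD1, GCA, RCN2 and CIB1 fell by 0.52, 0.51, 0.25 and 0.14, and the call of CIB1 was lost without replicate 1, 2 or 3 and that of RCN2 without replicate 2 or 3. GCA did not pass the methods' t-test (0.113 unadjusted). The rises of S100A2 and S100A11 (2.19 and 1.07) were thus larger than any value in this list, a description with no test of the difference.

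**Figure D4:**
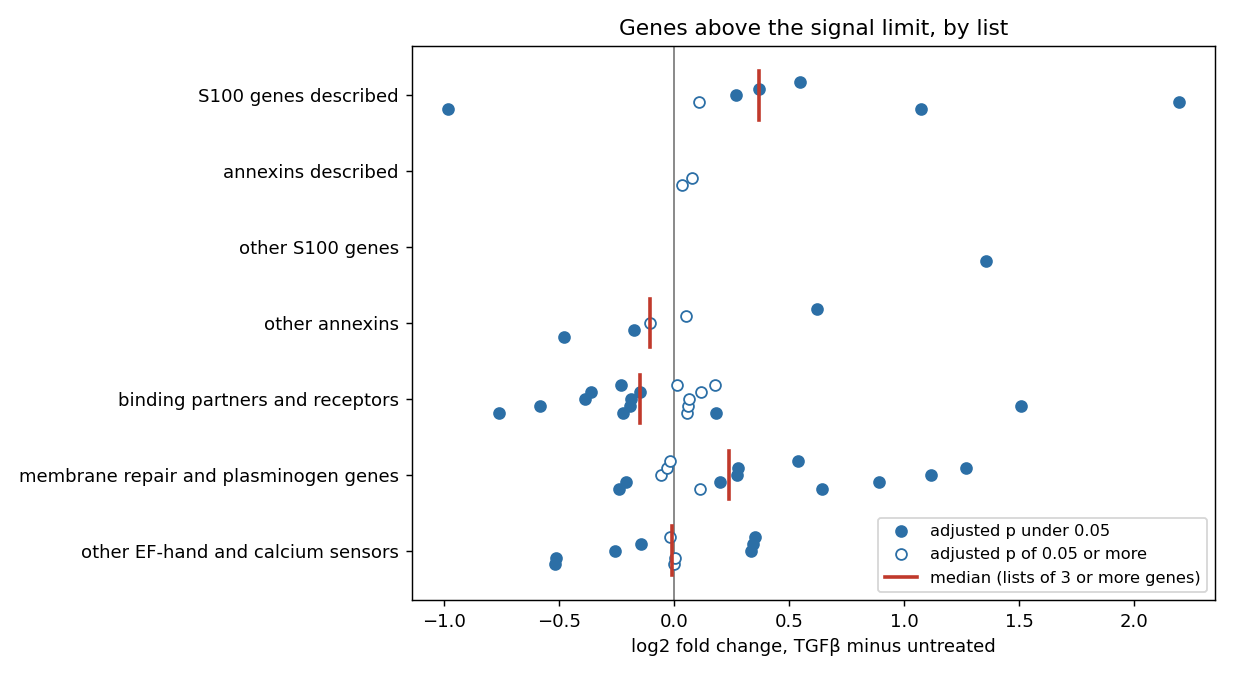
Log2 fold change, TGFβ minus untreated (horizontal axis), of every gene above the signal limit in each list (rows), filled where the adjusted p by limma was under 0.05, with a line at the median of lists of 3 or more genes. The medians were -0.14 for binding partners, 0.24 for membrane repair and plasminogen genes and -0.0072 for other EF-hand genes. The 0.24 includes PLAUR and DYSF, which reached the limit on the TGFβ arrays only.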

How the data were processed

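RNA of Panc-1 cells was hybridised to 6 Affymetrix U133 Plus arrays, 3 with TGFβ and 3 untreated. The authors deposited log2 signals of 54675 probe sets on each array, which ran from 2.89 to 14.8. The log2 scale was read from the values. Software and normalization are not given in the sources used here. Precision is limited by the small number of arrays.

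The 62 control probe sets were left out. Probe sets averaging a signal under 100 in both groups were excluded, after the methods of the study, which kept 19101. The 19101 and the shares over all probe sets include probe sets that name several genes or none. Gene values used only probe sets that name a single gene, so the 1801 naming several genes were left out there. This gave 10115 genes. Differences were tested, two-sided and over the whole table, by lmFit and eBayes of limma 3.58.1 (R 4.3.3), blocked by replicate number since the methods pair the arrays, with Benjamini-Hochberg adjustment. All members were named, and of each other list up to 4 genes per direction with the largest change, past the test and of the same sign in all 3 pairs, beside genes that did not pass, chosen after their values were seen. Members and lists were chosen with earlier results of these data known. The fit was tested on simulated data. RefSeq tables gave symbols, gene order and promoters, and 19735 of 19777 Entrez IDs matched. Plots used matplotlib 3.10.9. Alternatives covered the block, filter, normalization, an added constant of 16, probe set choice, variance model, the methods' t-test and each replicate left out.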

Additional observations from a re-analysis of the deposited data

How the results depend on the processing

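None of the member genes, their probe sets above the limit, or the other genes named by rule changed direction under the 14 alternatives. CACYBP and KRT7, which did not pass, were at -0.029 and -0.010 with dim probe sets kept. Of the values under alternatives, 120 kept their side of the threshold, 3 passed it newly and 2 no longer did for member genes. For member probe sets 137 kept it, 2 passed newly and 14 no longer did, and for the other named genes 286 kept it and 35 no longer did. With the methods' t-test after Benjamini-Hochberg adjustment, 2337 genes, 2965 probe sets and 4 member probe sets changed, and S100A10 (0.27, adjusted p = 0.0747) and S100A16 (0.55, adjusted p = 0.0662) no longer passed. Nor did AHNAK (0.0688), ANXA2R (0.164), ANXA4 (0.116), CIB1 (0.0677), EFHD2 (0.0921), ENO1 (0.0580), GCA (0.179), PLGRKT (0.0553), PPP5C (0.0852) and RCN2 (0.152), each an adjusted p. S100A6 passed when dim probe sets were kept (0.29, adjusted p = 0.0164 by limma) and with a variance trend and robust moderation (0.11, adjusted p = 0.00361 by limma). S100A6 also lay under the threshold of the methods' t-test before adjustment, at 0.11 (0.0202 unadjusted, 0.0643 adjusted). Leaving out each replicate in turn gave 4296 to 6484 genes changed, 7358 to 11696 probe sets, 6 member genes each time and 5 to 6 member probe sets. ANXA2 has no value without _x_at probe sets.

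Same-numbered arrays deviated together with correlations of -0.24, 0.24 and 0.11, so the numbers do not pair them by this check. Without the replicate block, 6265 genes, 11058 probe sets, 6 member genes and 6 member probe sets changed, and among the members only the call of S100A10 probe set 238909_at was lost. Signals near the top of the scale (ANXA2) and below the limit (ANXA3) limit what could be measured.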

Other observations

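S100P, a secreted S100 protein known from pancreatic carcinoma, was singled out after its values were seen. It was below the signal limit in both groups and so was left out of the comparison above. Its probe set read 5.78, 5.61 and 5.53 on the TGFβ arrays and 6.44, 6.33 and 6.30 on the untreated arrays, and the groups did not overlap. With dim probe sets kept, its log2 fold change was -0.72 (adjusted p = 0.000198 by limma). S100A14, an epithelial member of the family, read 5.27 on average with TGFβ and 5.17 untreated and did not pass in that fit (adjusted p = 0.386 by limma).

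A probe set that names both SNU13 and ANXA2 was not counted for either gene. It read 11.71, 11.70 and 11.74 on the TGFβ arrays and 11.44, 11.53 and 11.49 on the untreated arrays, with no overlap, a difference of 0.23 in the mean log2 signal. In the fit with dim probe sets kept it did not pass (adjusted p = 0.0600 by limma). The 3 bright probe sets that name ANXA2 alone had differences of 0.027 to 0.047, and the gap between them and the shared probe set was not tested.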
